A study of Homo sapiens with 6 samples.

Results

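PRX, which encodes periaxin, was examined together with 9 genes for its membrane partners in human fibroblasts depleted of MCM7 by siRNA. The 10 genes (PRX, DRP2, DAG1, UTRN, DMD, SGCB, SGCD, SGCE, SNTB2 and PMP22) were taken by symbol from the 58302 genes of the count table. PRX was chosen by its read counts in these same libraries, where its fold decrease was the largest of all tested genes, so its own values are given as a description without a test. The partners were chosen for their membership in the same membrane complex, apart from PMP22, a membrane protein gene that shares a disease class with PRX. PMP22 is counted among the 9 partners, and all were chosen with earlier results of these data known. Of the 10 genes, 9 were among the 14667 genes with enough reads to be tested, and DRP2 was not.

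The cells were hTert 1BR3 fibroblasts, human skin fibroblasts that telomerase allows to divide without limit. In the tested condition they received a pool of siRNAs against MCM7, which belongs to the ring-shaped helicase that opens DNA for its replication, and in the other condition non-targeting siRNAs. All cells were transfected while cycling and were then starved of serum, which stops division and lets cells form a primary cilium, and the comparison asks how RNA levels in such cells differ after MCM7 depletion. RNA from 3 samples with MCM7 siRNA and 3 samples with control siRNA was sequenced from poly(A)+ RNA with strand information, and total counts ranged from 13721281 to 23969024 in the MCM7 siRNA libraries and from 18669386 to 21380345 in the control libraries. The cells are 1 line, the labels do not say whether the samples were separate cultures, and the p-values therefore measure only the spread between these samples, which may be technical.

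Periaxin is a scaffold protein with a PDZ domain that is best known from Schwann cells, the cells that wrap peripheral nerves in myelin. There it binds DRP2, a relative of dystrophin, and through it dystroglycan, a receptor that links laminin outside the cell to the cytoskeleton inside, and loss of PRX causes a demyelinating neuropathy. In muscle and many other cells the same receptor is held by dystrophin or utrophin and is flanked by sarcoglycans and syntrophins.

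MCM7, the target of the siRNAs, had 48, 68 and 76 reads in the MCM7 siRNA libraries, against 509, 594 and 662 in the control libraries. This corresponds to 3.34 ± 0.167 CPM with MCM7 siRNA and 29.4 ± 1.996 CPM with control siRNA (SD, n = 3 each), where CPM (counts per 1e6) are reads scaled by the library total and by TMM factors, which correct for differences in library composition. The log2 fold change of MCM7, MCM7 siRNA over control siRNA, was -3.15 ± 0.10 (SE), and every library matched its label.

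PRX RNA was nearly absent after MCM7 depletion. PRX (ENSG00000105227, chromosome 19, 40393766 to 40414793 of GRCh38, minus strand) had 9, 13 and 15 reads in the MCM7 siRNA libraries, against 137, 114 and 139 in the control libraries. Scaled to the libraries, these reads were 0.658, 0.637 and 0.627 CPM with MCM7 siRNA, against 7.35, 5.68 and 6.56 CPM with control siRNA. The MCM7 siRNA libraries lay close together and far below each control library. The means were 0.641 ± 0.016 CPM with MCM7 siRNA and 6.53 ± 0.832 CPM with control siRNA (SD, n = 3 each). The fitted log2 fold change was -3.34 ± 0.20 (SE), which is 9.88% of the control level. The SE takes no account of the choice of PRX by this same fold change. Because these are bulk samples, fewer cells that express a gene and less of its RNA per cell cannot be told apart.

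**Figure D1:**
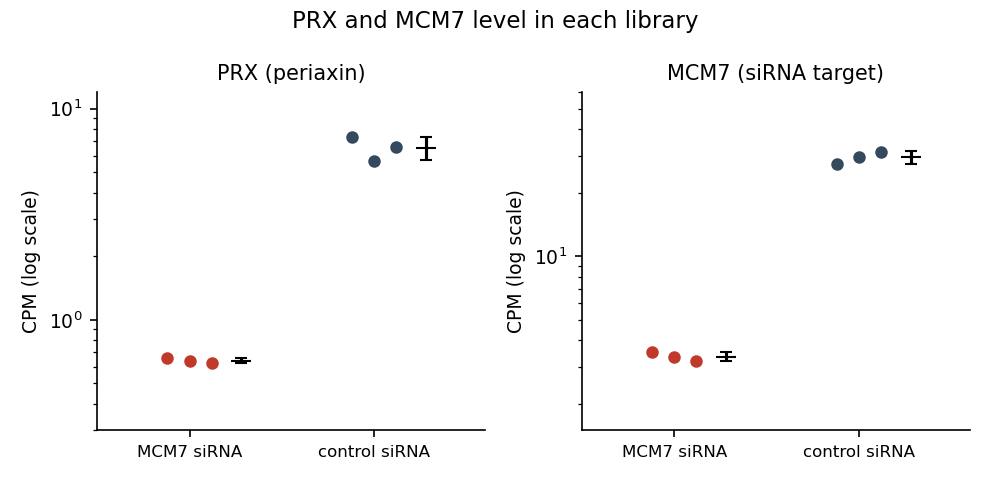
Level of PRX (left) and MCM7 (right) in each library, in CPM on a log axis. Each point is a library, and the bar beside the points gives the mean and SD of 3 libraries. The MCM7 siRNA libraries sit at 0.627 to 0.658 CPM for PRX, and all control libraries are above 5 CPM.

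The genes that followed PRX in fold decrease, among called genes whose mean level reached 1 CPM, were MCM7 itself, LINC01128 and ZNF468. LINC01128, a long noncoding RNA gene, had a log2 fold change of -1.87 ± 0.14 (SE) and 33, 42 and 56 reads with MCM7 siRNA, against 160, 165 and 169 with control siRNA. ZNF468, a zinc finger gene, had -1.77 ± 0.23 (SE) and 7, 21 and 24 reads with MCM7 siRNA, against 48, 62 and 74 with control siRNA. PRX and MCM7 thus stood apart from the next gene by more than 1 log2 unit.

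The genes with the profile most like PRX over the 6 libraries are given as a description only, since the likeness uses the same CPM values as the fold decrease and largely restates it. Profiles were centred log2 CPM values with 0.1 CPM added, and likeness to PRX was the root mean square difference over the 6 libraries. MCM7 was closest to PRX at 0.149 log2 units, followed by LINC01128 (0.676), ZNF468 (0.780), ZNF28 (0.972) and SLC25A35 (0.995). ZNF28, another zinc finger gene, overlaps ZNF468 on the same strand, so reads of these genes can be lost from the counts.

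The gene model of PRX is compact where it codes. The canonical GENCODE 44 transcript has 7 exons, of which 4 are coding, and the last exon holds 91.3% of the coding sequence. Reads counted per gene cannot separate the long and short forms of periaxin, which differ by splicing at the 3' end.

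The promoter windows of PRX, the most lowered gene, and of DAG1, the receptor gene of its complex, were read from RefSeq on GRCh38.p14, which lists a window for 9 of the 10 members, to show the sequence around their starts. Each window runs from 250 bases before to 50 bases after the annotated start, on the strand of the gene. Capitals mark a GC box (GGGCGG) or a CCAAT box (CCAAT), each searched on both strands. The PRX window is chr19:40414740-40415039 on the minus strand, and the DAG1 window, the first of 2 listed, is chr3:49469882-49470181 on the plus strand.
PRX: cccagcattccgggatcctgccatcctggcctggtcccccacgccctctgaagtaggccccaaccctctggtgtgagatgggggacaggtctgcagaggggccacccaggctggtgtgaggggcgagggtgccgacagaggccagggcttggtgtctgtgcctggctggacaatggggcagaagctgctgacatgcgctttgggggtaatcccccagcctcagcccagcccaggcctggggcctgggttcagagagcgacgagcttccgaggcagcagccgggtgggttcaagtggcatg
DAG1: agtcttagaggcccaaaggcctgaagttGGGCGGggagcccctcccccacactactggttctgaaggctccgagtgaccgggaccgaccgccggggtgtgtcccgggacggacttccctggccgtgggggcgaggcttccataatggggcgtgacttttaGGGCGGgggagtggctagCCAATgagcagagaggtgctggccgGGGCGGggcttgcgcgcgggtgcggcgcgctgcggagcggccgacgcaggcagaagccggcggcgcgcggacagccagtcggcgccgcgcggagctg
The PRX window held 0 GC boxes, 0 CCAAT boxes and 9 CG dinucleotides. The DAG1 window held 3 GC boxes, 1 CCAAT box and 34 CG dinucleotides. Among all 35116 RefSeq windows of the same length, 45.0% held a GC box and 34.6% a CCAAT box, and the median number of CG dinucleotides was 14. The window of UTRN, the first of 2 listed, held 1 GC box and 30 CG dinucleotides, and that of SGCD 1 GC box and 13. The SGCD window (chr5:156326914-156327213) lies inside the gene, which starts at 155870344 in GENCODE. These matches are descriptions of letters, and nothing about binding follows from them. The RefSeq start of PRX lies 1.411 kb upstream of the start of the canonical GENCODE transcript, and which start these cells use was not tested.

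No tested gene beside PRX on chromosome 19 was lowered to a similar extent. A smaller fall of the neighbours was fixed by the choice of PRX as the most lowered gene. The 3 nearest tested genes on one side were HIPK4, a kinase gene 3.585 kb away, PLD3, a lysosomal nuclease gene 4.294 kb away, and C19orf47 45.239 kb away. On the other side lay SERTAD1 at 6.796 kb, SERTAD3 at 26.051 kb and BLVRB, which encodes a biliverdin reductase, at 32.972 kb. PLD3 had 268, 249.9 and 286 CPM with MCM7 siRNA, against 293, 309 and 303 CPM with control siRNA, and was lower with a log2 fold change of -0.17 ± 0.05 (SE, adjusted p = 0.0231 in edgeR). The PLD3 call was lost without MCM7 siRNA replicate 1 (adjusted p = 0.0768), MCM7 siRNA replicate 2 (0.115), control siRNA replicate 2 (0.108) or control siRNA replicate 3 (0.0942). The other 5 neighbours were not called, at log2 fold changes of -0.21 ± 0.38 (HIPK4), 0.06 ± 0.12 (C19orf47), -0.04 ± 0.10 (SERTAD1), 0.14 ± 0.09 (SERTAD3) and -0.11 ± 0.07 (BLVRB). HIPK4 had only 3, 13 and 15 reads with MCM7 siRNA, against 13, 16 and 8 with control siRNA, so its value is imprecise.

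**Figure D2:**
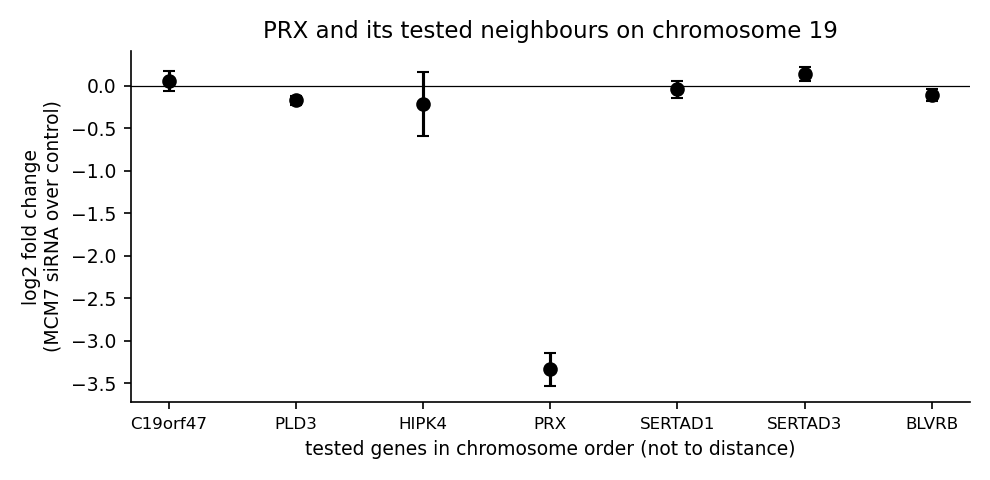
Log2 fold change, MCM7 siRNA over control siRNA, of PRX and the 3 nearest tested genes on each side, in chromosome order and not to distance. Bars are SE. PRX lies at -3.34 and its neighbours between -0.21 and 0.14.

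The tested membrane partners of PRX changed by less than 1.5-fold. PRX was chosen as the most lowered gene, so that no partner fell as far was fixed by this choice. Of 8 tested partners, 1 was lower (DAG1) and 2 were higher (UTRN and SGCD) at an adjusted p under 0.05, where p-values of the edgeR quasi-likelihood test were adjusted over all 14667 genes by the Benjamini-Hochberg method. Over all tested genes 6.65% were called lower and 6.18% higher. All 3 calls were also made by DESeq2, and 8.99% of all tested genes were called by both tools. No partner reached a change of 1.5-fold, the limit the study used for its pathway lists, while 1.28% of all tested genes were called with such a change. The log2 fold changes of the tested partners ranged from -0.18 to 0.27 with a median of 0.10, against a median of -0.0028 and a range from -0.38 (5th percentile) to 0.37 (95th percentile) over all tested genes. In 4 of 8 partners (DAG1, UTRN, SGCD and SGCE) the CPM of the groups did not overlap, which held for 29.6% of all tested genes.

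**Figure D3:**
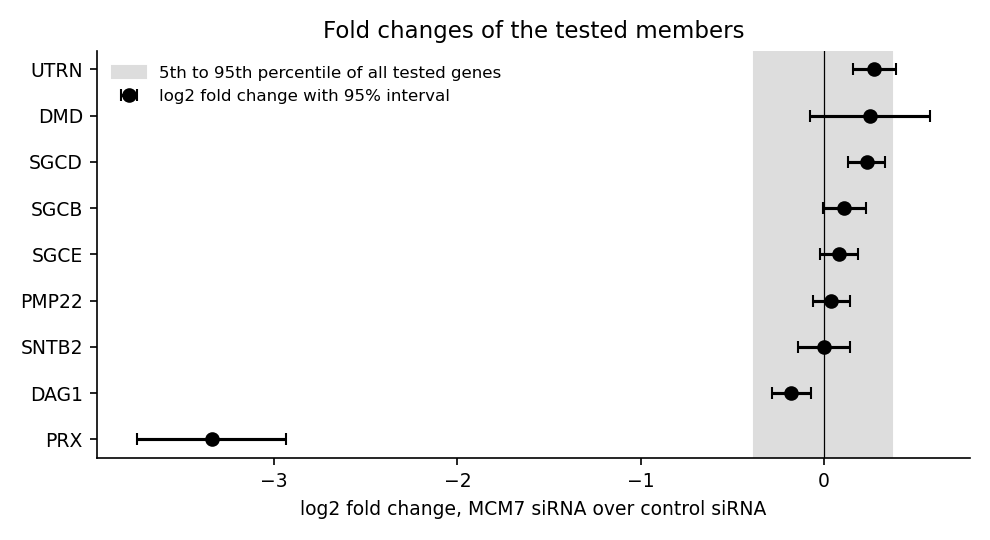
Log2 fold change, MCM7 siRNA over control siRNA, with 95% interval, of the 9 tested members. The interval of PRX takes no account of the choice of this gene by its fold decrease and is not a test. The grey band runs from the 5th to the 95th percentile of all tested genes (-0.38 to 0.37), which holds the points of all 8 tested partners but not that of PRX at -3.34.

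DAG1 encodes dystroglycan, a single precursor that is cut into an outer laminin-binding part and a part that spans the membrane. DAG1 (ENSG00000173402, chromosome 3, 49468713 to 49535618, plus strand) had 204, 178 and 199.96 CPM with MCM7 siRNA, against 211, 223 and 225 CPM with control siRNA. Every MCM7 siRNA library was below every control library, and MCM7 siRNA replicate 2 was the lowest. The log2 fold change was -0.18 ± 0.05 (SE), 0.884 of the control level, with an adjusted p of 0.0221 in edgeR and 0.0329 in DESeq2. This call rested on single libraries: without MCM7 siRNA replicate 2 the adjusted p was 0.126, without control siRNA replicate 2 it was 0.0927, and without control siRNA replicate 3 it was 0.126.

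The cytoskeletal side of the complex is formed by proteins of the dystrophin family. UTRN encodes utrophin, the relative of dystrophin that most non-muscle cells use to link dystroglycan to actin. UTRN (ENSG00000152818, chromosome 6, 144285335 to 144853034, plus strand) had 152, 155 and 146 CPM with MCM7 siRNA, against 113, 138 and 123 CPM with control siRNA. The groups did not overlap, and control siRNA replicate 2 came closest to the MCM7 siRNA libraries. UTRN rose by a log2 fold change of 0.27 ± 0.06 (SE), or 1.21-fold, with an adjusted p of 0.00133 in edgeR and 0.00117 in DESeq2, and the adjusted p stayed under 0.05 in all 15 alternatives without a fold limit.

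DMD encodes dystrophin itself, the protein missing in Duchenne muscular dystrophy. DMD (ENSG00000198947, X chromosome, 31097677 to 33339609, minus strand) had 40, 80 and 86 reads with MCM7 siRNA, against 53, 64 and 61 with control siRNA. Its CPM values overlapped, at 2.93, 3.92 and 3.596 with MCM7 siRNA, against 2.84, 3.19 and 2.88 with control siRNA. The log2 fold change was 0.25 ± 0.16 (SE, adjusted p = 0.341 in edgeR), and the 95% interval of the fold change ran from 0.949 to 1.49, so that a rise of the size of UTRN was not distinguishable from no change at this depth.

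DRP2 encodes the dystrophin-related protein that periaxin binds directly. DRP2 (ENSG00000102385, X chromosome, 101219769 to 101264502, plus strand) had 5, 3 and 10 reads with MCM7 siRNA, against 9, 1 and 3 with control siRNA. No library reached the 0.497 CPM that the filter on low counts asked for, and no fold change is given. With at most 10 reads a library, a change in DRP2 was not detectable at this depth.

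Sarcoglycans are small membrane proteins that stabilise dystroglycan at the surface. SGCD (ENSG00000170624, chromosome 5, 155870344 to 156767788, plus strand), which encodes delta-sarcoglycan, had 269, 279 and 270.0 CPM with MCM7 siRNA, against 218, 247 and 232 CPM with control siRNA. The groups did not overlap, and the MCM7 siRNA libraries were within 10 CPM of each other. SGCD rose by a log2 fold change of 0.23 ± 0.05 (SE), or 1.18-fold, with an adjusted p of 0.00168 in edgeR and 5.95e-04 in DESeq2, and the adjusted p stayed under 0.05 in all 15 alternatives without a fold limit.

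SGCB (chromosome 4, 52020706 to 52038299, minus strand), for beta-sarcoglycan, had 104, 110.1 and 96.8 CPM with MCM7 siRNA, against 103, 91.3 and 93.5 CPM with control siRNA. The groups overlapped, and the log2 fold change of 0.11 ± 0.06 (SE) had an adjusted p of 0.210 in edgeR. Without MCM7 siRNA replicate 3, the lowest of its group, the log2 fold change of SGCB was 0.16 with an adjusted p of 0.0405. SGCE (chromosome 7, 94524204 to 94656572, minus strand), for epsilon-sarcoglycan, an imprinted gene mutated in myoclonus-dystonia, had 90.3, 92.2 and 94.8 CPM with MCM7 siRNA, against 87.1, 85.8 and 89.4 CPM with control siRNA. Every SGCE value with MCM7 siRNA was above every control value, yet the log2 fold change of 0.08 ± 0.05 (SE) did not pass the test (adjusted p = 0.328 in edgeR).

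SNTB2 (chromosome 16, 69187147 to 69309052, plus strand) encodes a syntrophin, an adaptor that brings signalling proteins to dystrophin and utrophin. It had 33.6, 35.4 and 34.8 CPM with MCM7 siRNA, against 31.2, 38.5 and 34.3 CPM with control siRNA. The control values enclosed those with MCM7 siRNA, and the 95% interval of the fold change ran from 0.905 to 1.10 (adjusted p = 0.997 in edgeR). PMP22 (chromosome 17, 15229773 to 15272292, minus strand), a membrane protein gene whose duplication causes the most common demyelinating neuropathy, had 141, 146 and 152 CPM with MCM7 siRNA, against 143, 137 and 147 CPM with control siRNA. The PMP22 groups overlapped, and its fold change lay between 0.958 and 1.10 (95% interval, adjusted p = 0.668 in edgeR).

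**Figure D4:**
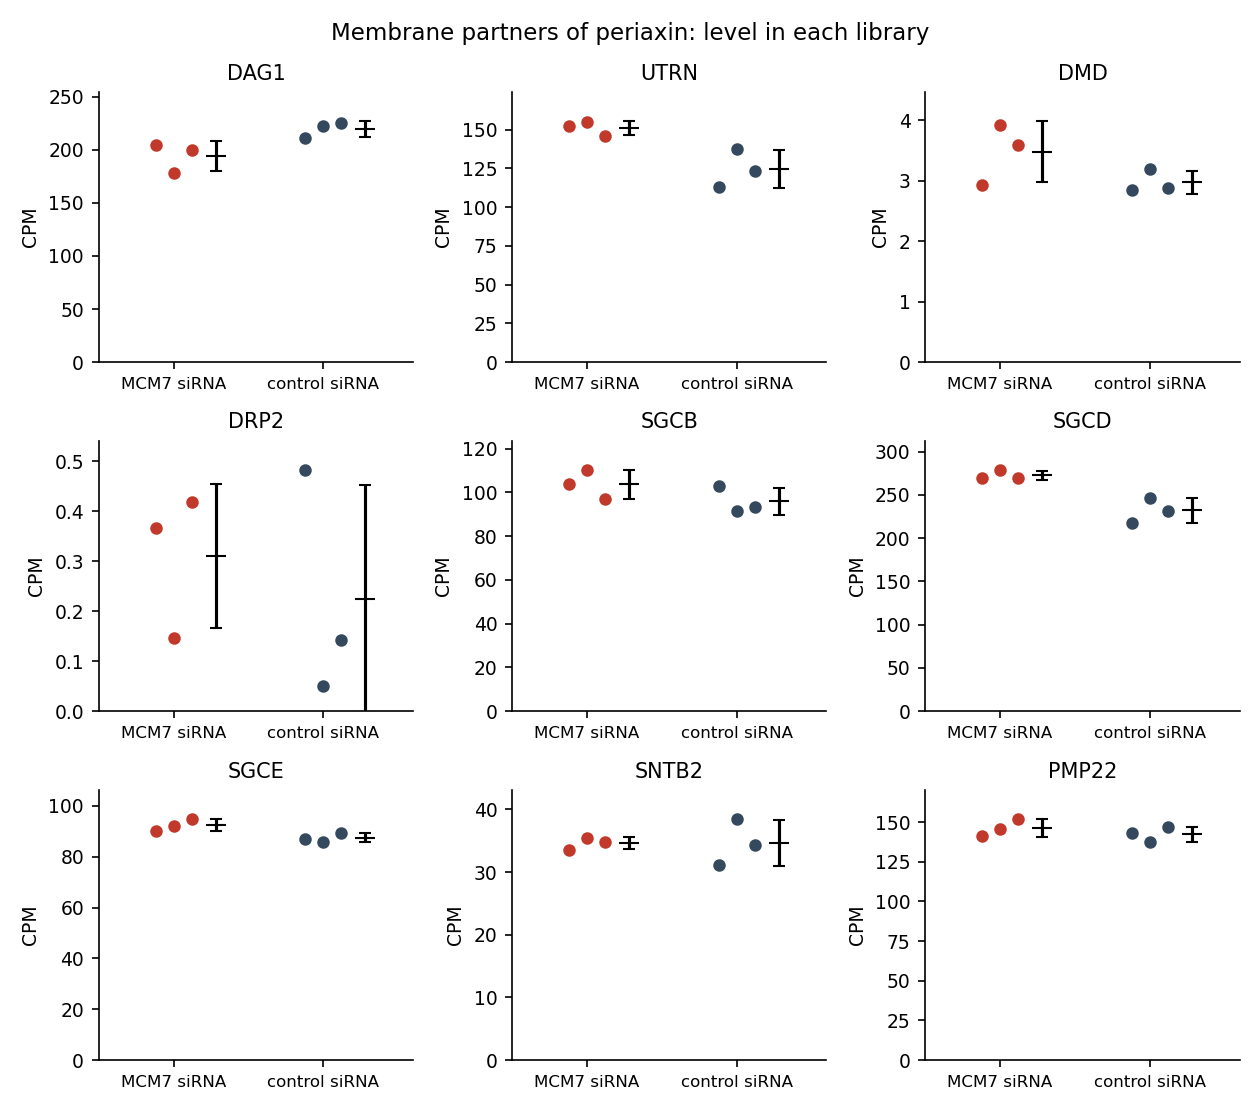
Level of the 9 membrane partners in each library, in CPM from 0 on a linear axis. Points are libraries and the bar beside them gives mean and SD (n = 3), with the lower end of the control bar of DRP2 below the axis. UTRN and SGCD are higher and DAG1 is lower with MCM7 siRNA than with control siRNA in all libraries, and DRP2 stays under 0.5 CPM.

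Levels of different genes were compared per length, as deposited RPKM (CPM without TMM factors, divided by the gene length in kilobases). With MCM7 siRNA the order was PMP22 (50.2 RPKM), SGCE (36.4), DAG1 (28.1), SGCD (25.8), SGCB (22.9), UTRN (10.4), SNTB2 (3.52), DMD (0.185), PRX (0.111) and DRP2 (0.038). With control siRNA it was PMP22 (48.5 RPKM), SGCE (34.2), DAG1 (31.5), SGCD (21.8), SGCB (21.0), UTRN (8.50), SNTB2 (3.49), PRX (1.13), DMD (0.156) and DRP2 (0.027). PRX and DMD changed places: PRX was below DMD in every MCM7 siRNA library and above it in every control library.

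Among the abundant members, the neighbours that could not be separated differed between the conditions. DAG1 ranged from 26.1 to 29.4 RPKM and SGCD from 25.3 to 26.7 RPKM with MCM7 siRNA, which overlapped, against 30.4 to 32.2 RPKM for DAG1 and 20.5 to 23.2 RPKM for SGCD with control siRNA, which did not. SGCD and SGCB overlapped only with control siRNA, where SGCB ranged from 20.0 to 22.6 RPKM. UTRN was the most abundant of the dystrophin family genes per length, and DMD was at 0.185 ± 0.028 RPKM with MCM7 siRNA and 0.156 ± 0.010 RPKM with control siRNA (SD, n = 3 each).

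Other genes of the dystrophin complex were also examined. Of 13 listed genes 8 were tested, with a median log2 fold change of -0.11. None was higher in edgeR, also at an unadjusted p under 0.05, and DESeq2 called 0 in either direction. Of all tested genes 13.3% were lower and 12.8% higher at an unadjusted p under 0.05 in edgeR, and DESeq2 called 9.03%. CAV1, which encodes the caveolar coat protein caveolin-1 and was the most abundant of the list per length (231 RPKM with MCM7 siRNA and 247 RPKM with control siRNA), was not called at -0.11 ± 0.05 (SE, adjusted p = 0.165 in edgeR).

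Dystroglycan binds laminin only after its outer part has received a long sugar chain, and the enzymes of this pathway were next examined. Of 18 such genes 17 were tested, and 0 were lower and 1 was higher in edgeR, beside 6.65% and 6.18% of all tested genes. Their median log2 fold change was 0.0040. At an unadjusted p under 0.05 in edgeR 2 were lower and 3 were higher, beside 13.3% and 12.8% of all tested genes, and DESeq2 called 0. POMT2, a mannosyltransferase gene for the first step, had 17.7, 20.6 and 18.4 CPM with MCM7 siRNA, against 16.1, 15.003 and 16.4 CPM with control siRNA, a rise of 0.26 ± 0.08 on the log2 scale (SE, adjusted p = 0.0344 in edgeR and 0.0972 in DESeq2). The POMT2 call was lost without any one of 4 libraries, namely MCM7 siRNA replicate 2 (adjusted p = 0.158) and control siRNA replicates 1 (0.082), 2 (0.161) and 3 (0.0667). The most abundant enzyme genes of the list, DPM1 and DOLK, which act in the route to the mannose donor, had log2 fold changes of -0.06 ± 0.09 and -0.09 ± 0.07 (SE) and were not called.

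The ligands of dystroglycan are laminins and other matrix proteins, and 14 of 18 listed genes were tested. Of these 1 was lower and 2 were higher in edgeR, beside 6.65% and 6.18% of all tested genes. Their median log2 fold change was -0.0015. LAMC1, for the gamma chain shared by most laminins, had 2364, 2443 and 2365 CPM with MCM7 siRNA, against 1751, 1992 and 1900 CPM with control siRNA, and rose by 0.35 ± 0.05 on the log2 scale (SE, 1.27-fold, adjusted p = 1.81e-05 in edgeR). LAMA4, a laminin alpha chain gene, rose 1.16-fold (adjusted p = 0.00295 in edgeR), at 1244, 1283 and 1217 CPM with MCM7 siRNA, against 1048, 1112 and 1082 CPM with control siRNA. BGN encodes biglycan, a proteoglycan that binds the complex from outside, and had 685, 626 and 713 CPM with MCM7 siRNA, against 783, 803 and 816 CPM with control siRNA. BGN fell by 0.25 ± 0.05 on the log2 scale (SE, adjusted p = 9.71e-04 in edgeR). For LAMC1, LAMA4 and BGN the groups did not overlap, and all 3 had an adjusted p under 0.05 in each of 14 alternatives with that threshold alone, but none reached 1.5-fold.

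The list of other linkers between membrane and cytoskeleton had 20 tested genes. Of these 2 were lower and 2 were higher in edgeR, beside 6.65% and 6.18% of all tested genes. Their median log2 fold change was -0.02. ITGB1, for the beta chain of most laminin- and collagen-binding integrins, had 2593, 2614 and 2387 CPM with MCM7 siRNA, against 3097, 2851 and 2893 CPM with control siRNA (log2 fold change -0.22 ± 0.05, SE, adjusted p = 0.0038 in edgeR). CD151, a tetraspanin gene whose product binds laminin-binding integrins, had 161, 150.4 and 170.3 CPM with MCM7 siRNA, against 185, 183 and 184 CPM with control siRNA (log2 fold change -0.20 ± 0.05, SE, adjusted p = 0.0081 in edgeR). Both had an adjusted p under 0.05 in each of 14 alternatives with that threshold alone, but neither reached 1.5-fold. AHNAK, for a giant scaffold protein, was higher at 0.21 ± 0.06 (SE, adjusted p = 0.0170 in edgeR) although its groups overlapped, at 1501, 1596 and 1394 CPM with MCM7 siRNA, against 1222, 1438 and 1235 CPM with control siRNA. SPTBN1, a spectrin gene, was higher at 0.15 ± 0.05 (SE, adjusted p = 0.0388 in edgeR). The AHNAK call was lost without MCM7 siRNA replicates 1 or 2 (adjusted p = 0.0584 and 0.0720) or control siRNA replicates 1 or 3 (0.131 and 0.140). The SPTBN1 call held without MCM7 siRNA replicate 3 and was lost without any other library, with adjusted p of 0.0751 (without control siRNA replicate 2) to 0.149 (without MCM7 siRNA replicate 1). ACTN4, an actinin gene, was the most abundant of this list per length after ITGB1 and was not called, with 119 RPKM in both conditions.

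**Figure D5:**
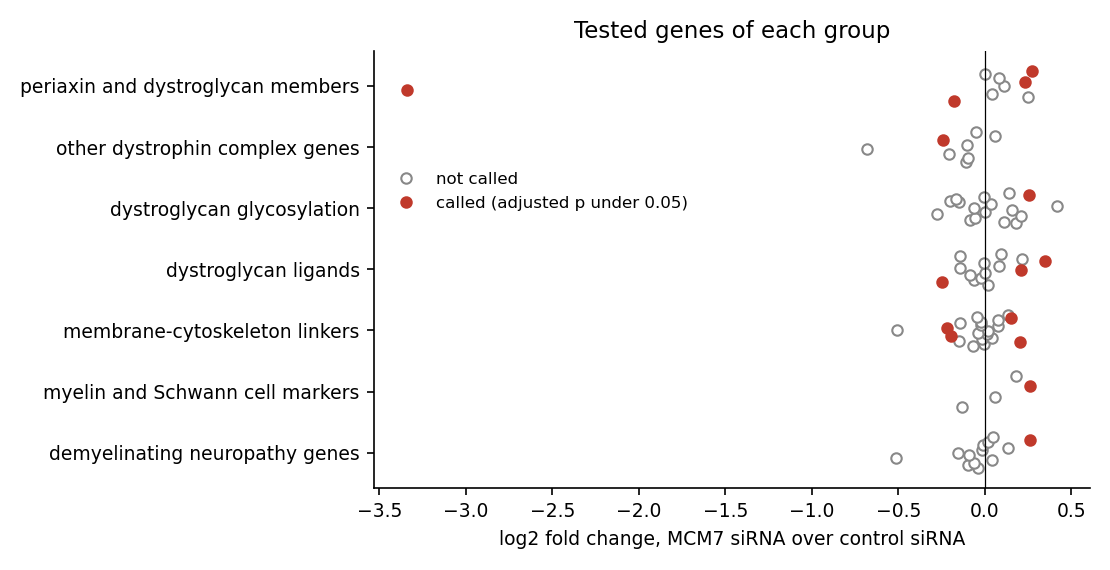
Log2 fold change, MCM7 siRNA over control siRNA, of every tested gene of the members and of the 6 gene groups named on the axis, 1 point per gene; markers of fibroblasts, muscle and endothelium are not drawn. Filled points passed an adjusted p under 0.05 in edgeR. For PRX the filled point is not a test, since this gene was chosen by its fold decrease. Apart from PRX at -3.34, the called genes drawn lie between -0.25 and 0.35.

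Periaxin is a Schwann cell protein, and the cells were therefore checked for markers of this and other cell types. Of 21 myelin and Schwann cell genes, 8 had no read in any library (MAG, SOX10, S100B, NCMAP, GJB1, CDH19, MAL and FA2H), which allows at most 0.125 to 0.219 CPM, depending on the library, for the 3 reads that a count of 0 allows, a limit that covers counting error only. The summed level of the list was 139.7 to 143 CPM with MCM7 siRNA and 139 to 145 CPM with control siRNA. Only 4 of the list were tested, with 0 lower and 1 higher in edgeR, beside 6.65% and 6.18% of all tested genes. Their median log2 fold change was 0.12. At an unadjusted p under 0.05 in edgeR 1 was lower and 1 higher, beside 13.3% and 12.8% of all tested genes. MBP, which encodes myelin basic protein and also makes transcripts outside myelin, rose 1.198-fold (39.9, 40.1 and 42.3 CPM with MCM7 siRNA, against 32.8, 34.6 and 34.8 CPM with control siRNA, adjusted p = 0.0043 in edgeR). EGR2, a transcription factor that drives myelin genes in Schwann cells, had 8.78, 9.01 and 9.53 CPM with MCM7 siRNA, against 8.36, 9.27 and 8.74 CPM with control siRNA (log2 fold change 0.06 ± 0.10, SE, adjusted p = 0.775 in edgeR). CNP, a myelin enzyme gene that many cells express, was the most abundant of the list at 12.02 RPKM with MCM7 siRNA and 13.1 RPKM with control siRNA and was not called.

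Markers of muscle were low, as were those of endothelium apart from TEK. Of 15 skeletal muscle genes, 7 had no read (MYOD1, MYOG, MYF5, MYF6, MYH7, MYL1 and TNNT3), and their sum was 4.56 to 5.34 CPM with MCM7 siRNA and 5.08 to 5.95 CPM with control siRNA. Of the 3 muscle genes tested, 0 were called by edgeR or DESeq2 and 1 was lower at an unadjusted p under 0.05, while 1 was called lower without control siRNA replicate 2. Of all tested genes 13.3% were lower and 12.8% higher at that unadjusted p in edgeR. Among all listed, the most abundant per length, the muscle actin gene ACTA1, was at 1.14 RPKM with MCM7 siRNA and 1.01 RPKM with control siRNA. The 10 endothelial genes summed to 17.0 to 20.8 CPM with MCM7 siRNA and 16.4 to 17.9 CPM with control siRNA. Of the 2 tested (TEK and EMCN), 0 were called by edgeR or DESeq2, with 1 higher at an unadjusted p under 0.05. In this list 1 gene was called higher without control siRNA replicate 3, and 1 without the filter on low counts. EMCN was at 2.93, 3.67 and 3.35 CPM with MCM7 siRNA, against 2.36, 1.79 and 2.88 CPM with control siRNA (adjusted p = 0.0590 in edgeR). TEK, the most abundant of the list per length, was at 12.9, 16.4 and 14.8 CPM with MCM7 siRNA, against 14.8, 13.4 and 13.8 CPM with control siRNA.

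The fibroblast identity of the cells was evident from the 12 fibroblast genes, which summed to 76377 to 79423 CPM with MCM7 siRNA and 72203 to 78276 CPM with control siRNA. Of the 12, all tested, 2 were lower and 5 were higher in edgeR, beside 6.65% and 6.18% of all tested genes. Their median log2 fold change was 0.07. Only 2 were called higher without MCM7 siRNA replicate 1, control siRNA replicate 1 or control siRNA replicate 3, and 3 without control siRNA replicate 2. FAP, a surface protease gene, and VIM, for vimentin, were lower at -0.35 ± 0.05 and -0.27 ± 0.05 (SE), while COL3A1, a fibrillar collagen gene, and PDGFRA, a growth factor receptor gene, were higher at 0.36 ± 0.05 and 0.25 ± 0.05 (SE). The most abundant, COL1A1 and COL1A2, were not called. Whether the changes of fibroblast genes have a part in those of UTRN, SGCD and DAG1 was not tested.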

How the data were processed

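RNA of 6 samples, 3 with MCM7 siRNA and 3 with control siRNA, was measured by poly(A)+ RNA sequencing. Per the submitters' processing notes, reads were extracted with bcl2fastq 1.8.4, mapped to GRCh38 with TopHat2 2.1.0 and assigned to genes with featureCounts 1.5.0. By the study's methods only uniquely mapped reads on annotated loci were counted, in a strand-specific way, so that reads of genes with close copies or with an overlap on 1 strand can be lost. The authors deposited raw counts per gene. The RPM table deposited with them scales these counts to 1e6 assigned reads per library, and the RPKM table of the authors divides RPM by a length for each gene.

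Total counts were 13721281, 20112653 and 23969024 with MCM7 siRNA and 18669386, 20150568 and 21380345 with control siRNA, so the shallowest library was an MCM7 siRNA one. Genes were kept with filterByExpr of edgeR 4.0.16 (14667 of 58302), and counts were tested with its quasi-likelihood test, 2-sided, with TMM factors and Benjamini-Hochberg adjustment over all tested genes at 0.05. DESeq2 1.42.0 served as the other tool and limma 3.58.1 on log2 RPM as an alternative, in R 4.3.3. The fits were tested on simulated data. Tables and figures were made in Python 3.11.15 with matplotlib 3.10.9. Coordinates are those of GENCODE 44 on GRCh38 by Ensembl identifier, and promoter windows are those of RefSeq on GRCh38.p14, matched by symbol.

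The members and gene lists were chosen with earlier results of these data known, and no p was adjusted over a list alone. The genes named were MCM7, the 10 members, the 3 genes next to PRX in fold decrease, the 5 genes with the profile most like PRX, the 3 nearest tested genes on each side of it, and of each list up to 4 called genes with the smallest p and up to 2 with the highest level. Genes listed because they had no read were named after their values were seen. A result among the other dystrophin complex genes that this rule takes is not reported here. Alternatives covered library scaling, the low-count filter, the tool, a 1.5-fold limit, the replicate number as a block, RPM with limma, and leaving out each library.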

Additional observations from a re-analysis of the deposited data

How the results depend on the processing

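UTRN and SGCD kept an adjusted p under 0.05 in all 15 alternatives without a fold limit, with log2 fold changes of 0.21 to 0.35 and 0.19 to 0.28. Counts of partners called lower and called higher were both 0 with the added limit of 1.5-fold, and the count called lower ranged from 0 to 1 when single libraries were left out, since DAG1 was lost without MCM7 siRNA replicate 2, control siRNA replicate 2 or control siRNA replicate 3 (log2 fold changes -0.12, -0.17 and -0.16). PRX had log2 fold changes of -2.61 and -3.14 with limma on RPM at pseudocounts of 0.5 and 0.1, a construction that shrinks low values. It has no value under the filter of at least 10 reads in every library, because 1 library held 9.

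The log2 fold change of SNTB2 was close to 0 and changed sign: it was 0.0015 with DESeq2 size factors, 0.012 with total counts, 0.0032 without a filter, 0.0012 in DESeq2, and 0.0142 and 0.0144 with limma on RPM at pseudocounts of 0.5 and 0.1, and without single libraries it ranged from -0.0693 to 0.0789. The cause was not tested.

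With the replicate number as a block the log2 fold change of PRX was -3.32, and 1961 genes were called against 1881 without it. The same 3 partners were called with the replicate block. Libraries with the same number deviated from their group means with correlations of -0.03 to -0.01, so no deviation shared by number was seen. Whether samples with the same number were made together cannot be read from this. By both edgeR and DESeq2 1318 genes were called, by edgeR with at least 1.5-fold change 188, and without single libraries 1151 to 2265. Depth limited DRP2, DMD and HIPK4.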

Other observations

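Genes whose mutation causes demyelinating neuropathy, the disease class of PRX and PMP22, were also examined. Of 14 listed genes 13 were tested, 0 were lower and 1 was higher in edgeR, beside 6.65% and 6.18% of all tested genes, with a median log2 fold change of -0.02. At an unadjusted p under 0.05 in edgeR 3 were lower and 2 higher, beside 13.3% and 12.8% of all tested genes, and DESeq2 called 1. SBF2, which encodes a regulator of phosphoinositide turnover, had 84.1, 89.3 and 85.0 CPM with MCM7 siRNA, against 71.6, 73.0 and 70.7 CPM with control siRNA, a rise of 0.26 ± 0.05 on the log2 scale (SE, adjusted p = 7.32e-04 in edgeR). The adjusted p of SBF2 was under 0.05 in each of 14 alternatives with that threshold alone, but the rise was under 1.5-fold. FBLN5, a matrix protein gene, and HK1, a hexokinase gene, were the most abundant of the list per length, at 69.3 and 26.2 RPKM with MCM7 siRNA and 73.4 and 27.7 RPKM with control siRNA, and were not called.

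Ratios between members within a library do not depend on how libraries are scaled, and these were chosen after the values were seen. UTRN and SGCD rose and DAG1 fell without overlap of the groups. Ratios of UTRN and SGCD to DAG1 therefore had to separate, and their separation adds no further evidence. The ratio of UTRN to DAG1 in RPKM was 0.354, 0.411 and 0.345 in the MCM7 siRNA libraries, against 0.254, 0.293 and 0.260 in the control libraries, without overlap. The ratio of SGCD to DAG1 was 0.863, 1.02 and 0.883 in the MCM7 siRNA libraries, against 0.676, 0.725 and 0.674 in the control libraries, also without overlap. The ratio of UTRN to DMD averaged 57.0 ± 9.02 with MCM7 siRNA and 54.3 ± 2.42 with control siRNA (SD, n = 3 each), and the groups overlapped.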
